A study of Mus musculus with 12 samples.

Results

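The genes described are the enzymes of the lower part of glycolysis and the subunits of lactate dehydrogenase: Aldoa, Tpi1, Pgk1, Pgam1, Pgam2, Eno1, Eno3, Pkm, Ldha and Ldhb. They were chosen by name, with earlier results of these data known, and 10 of 10 had a row among the 43686 rows of the deposited count table. For 7 of them the row carried the gene's name. For the other 3 (Pgk1, Eno1 and Pgam1) no row carried the name, and the row was taken from the KEGG description that the table gives for a row without a name, a choice made after the table had been opened. On the C57BL/6NJ assembly, whose identifiers the table uses, Ldha lies at chr7:49511849-49525997 and Ldhb at chr6:151328683-151347760, Eno1 at chr4:159732583-159748326 and Eno3 at chr11:73360538-73365860, and Pgam1 at chr19:42290276-42296792 and Pgam2 at chr11:2962245-2964338. Aldoa lies at chr7:136187991-136193487, Tpi1 at chr6:131501186-131504752, Pgk1 at chrX:105914158-105933142 and Pkm at chr9:60649361-60672356. All 10 rows passed the filter on low counts, which left 17155 rows tested.

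RNA of the ventricular wall was sequenced from 6 samples labelled wild type (WT) and 6 labelled Sdhaf4-/- (KO), all of strain C57BL/6 and labelled as 2 months old. The study's own sources give more than a single age for these mice, some near the label and some younger. By the study's methods the WT animals carried floxed Sdhaf4 alleles without Cre, so both genotypes carry Sdhaf4 fl/fl, and the KO animals carried in addition Ckmm-Cre, which is driven by the muscle creatine kinase promoter and is active in cardiac and skeletal muscle. Sdhaf4 encodes an assembly factor of succinate dehydrogenase, complex II of the respiratory chain. The comparison asks how the transcripts of these enzymes differ between hearts with and without this factor. The labels do not say that each library came from its own animal, and p-values measure the spread between these libraries.

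Glycolysis splits glucose and harvests ATP in its lower steps, from the aldolase reaction to pyruvate. Lactate dehydrogenase then interconverts pyruvate and lactate, as tetramers of a subunit encoded by Ldha, which prevails in fast skeletal muscle, and a subunit encoded by Ldhb, which prevails in the heart. Phosphoglycerate mutase and enolase likewise have a muscle isoform (Pgam2, Eno3) and an isoform of most other tissues (Pgam1, Eno1). The adult heart draws most of its energy from fatty acids and takes up lactate as fuel, and genes of glycolysis are textbook targets of hypoxia-inducible factor (HIF).

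The KO libraries were somewhat deeper, at 26542930 to 31393393 counts, than the WT libraries, at 23747014 to 27159228. Sdhaf4 itself ranged from 14.3 to 30.3 CPM in WT (mean 25.2 ± 5.80, SD, n = 6) and from 2.25 to 2.73 CPM in KO (2.40 ± 0.17), a log2 fold change of -3.39 with an SE of 0.16 (adjusted p = 1.95e-10). CPM are counts scaled to a common library total, here with the TMM factor of edgeR that corrects for differences in library composition. Of 10 cardiomyocyte markers 2 were higher and 4 lower in KO, with sums of 54936 to 62044 CPM in WT and 44863 to 63605 in KO, so the labelled tissue carried its defining genes. Of 7 fibroblast markers 7 were higher, and their sum was 1379 to 1613 CPM in WT and 2291 to 4236 in KO. Endothelial markers had 3 of 5 higher (1162 to 1300.1 CPM summed in WT, 1259.8 to 1531 in KO). Skeletal muscle fibre markers were near 0, at 1.25 to 12.7 CPM summed over 7 genes in WT and 0.83 to 4.71 in KO, and of the 2 tested, Mylpf, a myosin light chain of fast fibres, was lower (1.38 ± 0.76 CPM in WT, 0.39 ± 0.27 in KO, log2 fold change -1.81, adjusted p = 0.00294, no overlap). Of 4 macrophage markers 2 were lower, of 4 smooth muscle and pericyte markers 1 was higher and 1 lower, and no lymphocyte or red blood cell marker was called (2 tested of each). Adipocyte markers were at most 0.42 CPM summed and not tested. Over all rows tested, 25.6% were called higher and 25.5% lower. The marker counts are therefore not read as changes in cell numbers. No batch is given in the labels.

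Of the 10 genes, 8 were higher in KO and 2, Eno3 and Ldhb, were lower (edgeR quasi-likelihood test, adjusted p under 0.05 over all rows tested). The background is broad: 25.6% of all rows tested were called higher and 25.5% lower. The median log2 fold change over the 10 genes was 0.76, and over all rows tested it was 0.00, with the 5th and 95th percentiles of rows at -1.11 and 1.16. Among the 7 genes found by name, 5 were higher and 2 lower, with a median of 0.67. In CPM, every KO library lay above every WT library in 8 of the 10, a pattern seen in 14.9% of all rows, and below in 2, seen in 15.2%. By the stricter rule of the study, an adjusted p under 0.005 with a log2 fold change over 1, Pgk1, Eno1 and Ldha were higher, against 5.36% of all rows. Without KO replicate 3 the log2 fold change of Pgk1 was 0.998, just outside this rule, with an adjusted p = 1.21e-10 from edgeR. Summed over the 10 genes, the level was 7399 to 8086 CPM in WT and 8984 to 11778 CPM in KO.

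**Figure D1:**
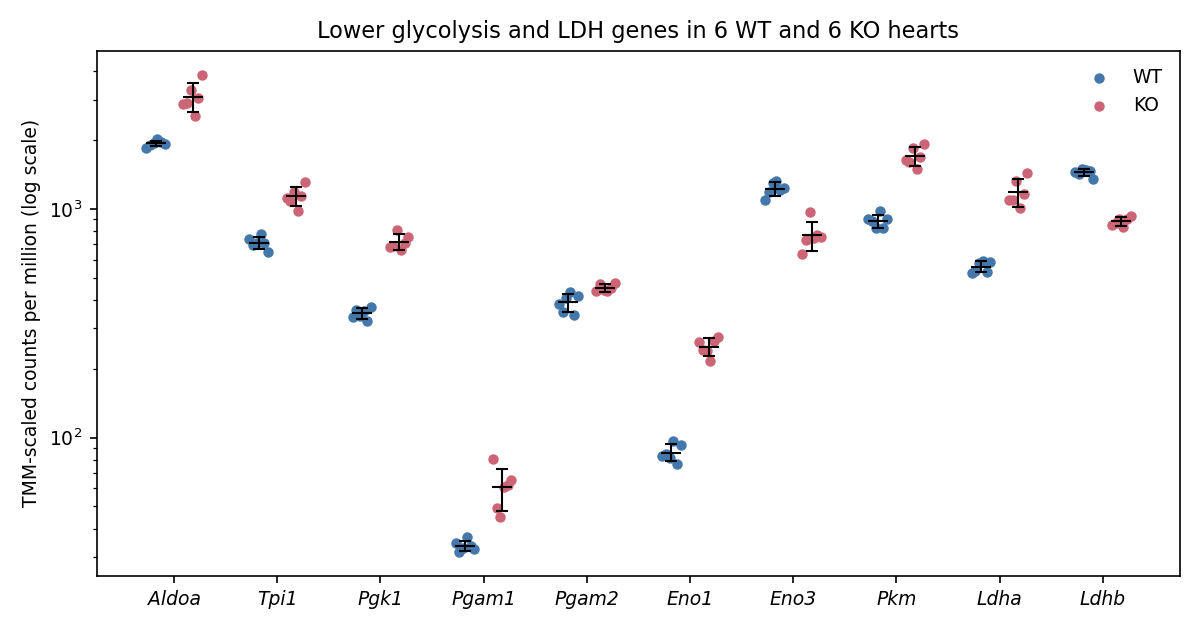
CPM of the 10 genes on a log scale, 1 point per library, WT in blue and KO in red, with the mean and SD (n = 6) in black. The KO points lie above the WT points in 8 genes and below them in Eno3 and Ldhb; in Pgam2 the groups are separated by less than 1 CPM.

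Aldoa, which encodes the muscle form of fructose-bisphosphate aldolase, ranged in WT from 1853 to 2020.3 CPM with a median of 1928, and in KO from 2556 to 3866 with a median of 2989.9. The groups did not overlap, and the KO libraries were more widely spread, with KO replicate 4 lowest and KO replicate 6 highest. Its log2 fold change was 0.68 (SE 0.08, adjusted p = 2.59e-06), or 1.60-fold. Aldoa overlaps Fam57b on the opposite strand, and the library kit named in the labels does not mark strand, so reads from their shared stretch cannot be told apart. The same limit holds for genes named below: Pfkp overlaps Pitrm1, Ldhd overlaps Znrf1 and Pdha1 overlaps Map3k15. Rows without a name overlap Hk1, Pfkm, Pdk2, Slc16a1 and Sdhaf4. Tpi1, encoding triosephosphate isomerase, ranged from 651 to 775 CPM in WT (median 707) and from 978 to 1307 in the KO hearts (median 1131). These groups were also fully apart, with a log2 fold change of 0.67 (SE 0.07, adjusted p = 3.02e-07). In bulk tissue, fewer cells of a type and less RNA per cell cannot be told apart, and the rise of all fibroblast markers listed above went with each change described here; its part in them was not tested.

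Pgk1 encodes phosphoglycerate kinase, the first ATP-yielding enzyme of the path. Its level was 324 to 374 CPM in WT with a median of 349, and 658 to 812 in KO with a median of 701. All 6 KO libraries stood above all WT libraries, KO replicate 3 highest. The log2 fold change was 1.04 (SE 0.06, adjusted p = 6.44e-10). Of the 75-base stretches of Pgk1 transcripts, 67.5% also occur in transcripts of other genes, so reads could be split or dropped among copies and the level is uncertain. Pkm, which encodes the muscle-type pyruvate kinases and closes glycolysis with another ATP-yielding step, had 824 to 976 CPM in WT (median 894) and 1496 to 1915 in the KO hearts (median 1668). The KO level was 1.92-fold that of WT (log2 fold change 0.94, SE 0.07, adjusted p = 8.45e-09), with no overlap. The counts are per gene and do not separate the M1 and M2 splice forms of Pkm. Of the 75-base stretches of Pkm transcripts, 14.01% also occur in other genes.

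Most of the phosphoglycerate mutase counts lay on the row of the muscle isoform, though the level of the other isoform is uncertain. Pgam2 had 344 to 434.9 CPM in WT (median 397) and 435.6 to 474 in the KO hearts (median 445). The lowest KO library lay just above the highest WT library, and the log2 fold change, 0.21 (SE 0.06, adjusted p = 0.0079), was the smallest of the 10. By the deposited FPKM the groups overlapped, with a WT maximum of 511 and a KO minimum of 504. Pgam1, the isoform of other tissues, had 31.7 to 36.7 CPM in WT (median 33.3) and 45.0 to 80.8 in the KO hearts (median 61.4), a log2 fold change of 0.85 (SE 0.11, adjusted p = 1.87e-05). KO replicate 1 was highest and KO replicate 3 lowest, and the KO spread of 20.9% (SD over mean) was the widest among the genes. The Pgam1 row is an unannotated locus on chromosome 19 that is overlapped over nearly its whole length by another unannotated row on the opposite strand, at 7.32 ± 0.83 CPM in WT and 13.5 ± 2.45 in KO. A copy on chromosome 11 had 2.37 ± 0.65 and 3.56 ± 0.75 CPM. Of the 75-base stretches of Pgam1 transcripts, 40.62% occur in other genes. Reads of Pgam1 were thus spread over rows or could be dropped, and its level is uncertain.

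Enolase changed in opposite directions in its isoforms. Eno1, the ubiquitous enolase, had 76.8 to 96.5 CPM in WT (median 84.2) and 215 to 277 in the KO hearts (median 253). Its log2 fold change of 1.54 (SE 0.07, adjusted p = 3.56e-11), or 2.91-fold, was the largest of the 10, with the groups far apart. Eno3, the muscle enolase, had 1092 to 1319.7 CPM in WT (median 1221) and 635 to 968 in the KO hearts (median 748). All KO libraries lay below all WT libraries, KO replicate 3 being nearest to them and KO replicate 1 farthest. Eno3 fell by 0.67 on the log2 scale (SE 0.08, adjusted p = 3.40e-06). Of the 75-base stretches of Eno1 transcripts 44.31% occur in other genes and of Eno3 0, so the Eno1 level is the less certain of the pair.

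Lactate dehydrogenase showed the same opposition. Ldha had 527 to 594 CPM in WT (median 555) and 1005 to 1440.4 in the KO hearts (median 1129.9). The groups did not overlap, with KO replicates 3 and 6 highest, and the log2 fold change was 1.09 (SE 0.08, adjusted p = 1.11e-08). Ldhb, the heart-type subunit, had 1356 to 1490.3 CPM in WT (median 1457) and 835 to 930.3 in the KO hearts (median 886). The values were tight in both genotypes and did not overlap. Ldhb fell by 0.71 on the log2 scale (SE 0.05, adjusted p = 6.36e-09), a level 1.64-fold lower in KO. Of the 75-base stretches, 3.11% in Ldha and 12.56% in Ldhb occur in other genes.

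Levels can be set beside each other only per length. By the gene lengths in the table, Aldoa was highest in WT at 1248 ± 36.4 CPM per kb, followed by Ldhb (1062 ± 35.8), Eno3 (782 ± 52.9), Tpi1 (487 ± 28.1), Pgam2 (465 ± 42.5), Pkm (364 ± 23.5), Ldha (316 ± 17.7), Pgk1 (201 ± 10.6), Eno1 (35.7 ± 3.05) and Pgam1 (24.0 ± 1.24; SD, n = 6). Of the neighbours in this order, Tpi1 and Pgam2 overlapped in their library values. In KO the order was Aldoa (1998 ± 290.0), Tpi1 (777 ± 74.5), Pkm (699 ± 64.5), Ldha (672 ± 93.5), Ldhb (649 ± 26.7), Pgam2 (537 ± 19.8), Eno3 (490.3 ± 69.8), Pgk1 (414 ± 32.1), Eno1 (104 ± 9.17) and Pgam1 (43.2 ± 9.03). Here the values of Tpi1, Pkm, Ldha and Ldhb ran into each other, as did those of Pgam2, Eno3 and Pgk1 between neighbours. Ldhb thus moved from the 2nd to the 5th place and Eno3 from the 3rd to the 7th. The authors' FPKM rest on shorter lengths for several genes (866 bases for Eno1 against 2408 in the table), and by FPKM Ldhb took the 4th and Eno3 the 5th place in KO, so the order depends on the length used.

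**Figure D2:**
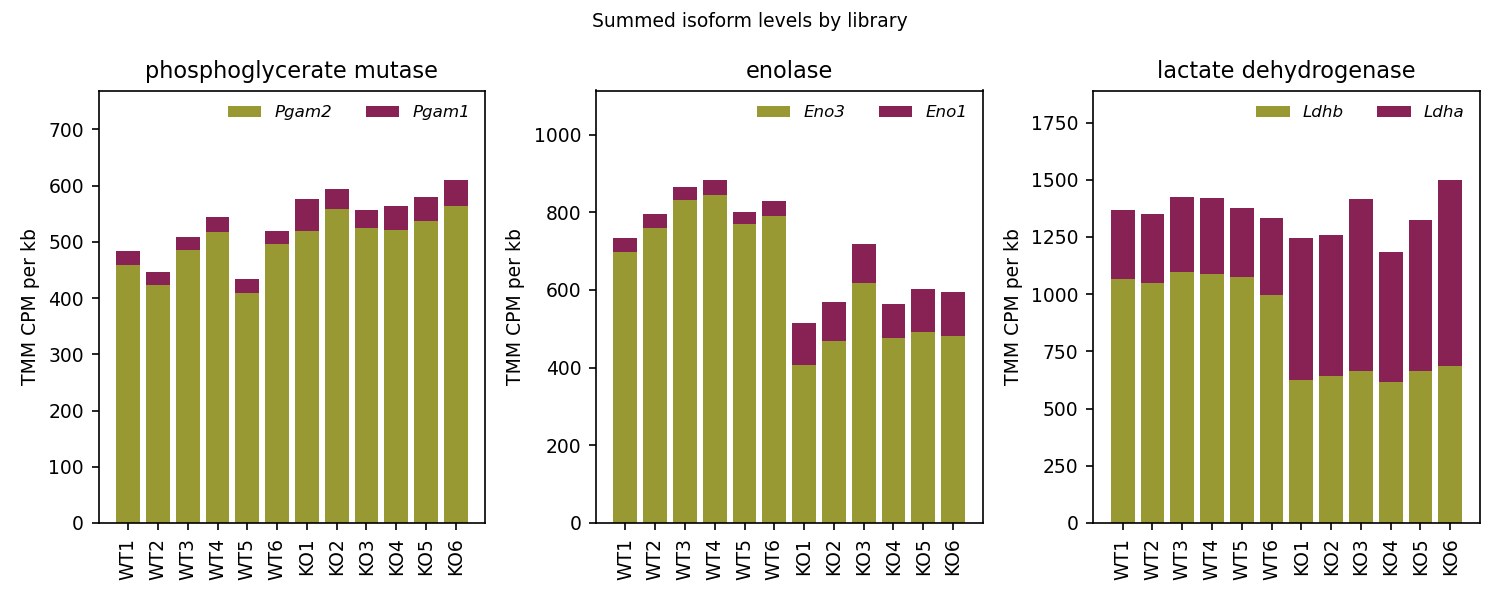
Summed level of both isoforms of each step by library, in CPM per kb, with the muscle or heart isoform at the bottom and the other stacked on it. The share of Eno1 and of Ldha in the bars is larger in the KO libraries, while the height of the lactate dehydrogenase bars overlaps between genotypes.

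The ratio of isoforms within a library does not depend on scaling between libraries. The log2 ratio of Eno3 to Eno1 per kb was 4.33 to 4.61 in WT (median 4.41) and 1.90 to 2.64 in the KO hearts (median 2.19). It differed by -2.22 (SE 0.12), a 4.66-fold lower ratio, with no overlap (exact permutation test over libraries, two-sided p = 0.00216, adjusted over 3 ratios and 3 summed levels 0.0026, the smallest p that 6 against 6 libraries can give being 0.00216). Eno3 made up 95.6% ± 0.34 of the pair in WT and 82.3% ± 2.58 in KO. With the deposited FPKM the median shares were 93.2% and 74.6%.

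The log2 ratio of Ldhb to Ldha per kb was 1.58 to 1.84 in WT (median 1.77) and -0.25 to 0.11 in the KO hearts (median 0.01). By the gene lengths in the table, the KO libraries lay around equal levels of both transcripts and the WT libraries well above. The difference was -1.79 (SE 0.07), or 3.46-fold, with an exact permutation p = 0.00216 (adjusted 0.0026). The share of Ldhb was 77.1% ± 1.24 in WT and 49.3% ± 2.49 in KO. By FPKM the median shares were 70.9% and 42.0%, and every KO library lay below equal levels, at 37.5% to 43.6%. The Pgam2 to Pgam1 ratio had the smallest difference, from 4.10 to 4.41 in WT (median 4.27) to 3.17 to 4.03 in the KO hearts (median 3.60) on the log2 scale. The difference was -0.61 (SE 0.14, exact permutation p = 0.00216, adjusted 0.0026), and Pgam2 still made up 92.6% ± 1.53 of the pair in KO against 95.1% ± 0.37 in WT. The size of this last ratio and of its shares is uncertain because of the split rows and shared stretches of Pgam1. The Eno3 to Eno1 ratio is uncertain in size too, because of the shared stretches of Eno1.

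**Figure D3:**
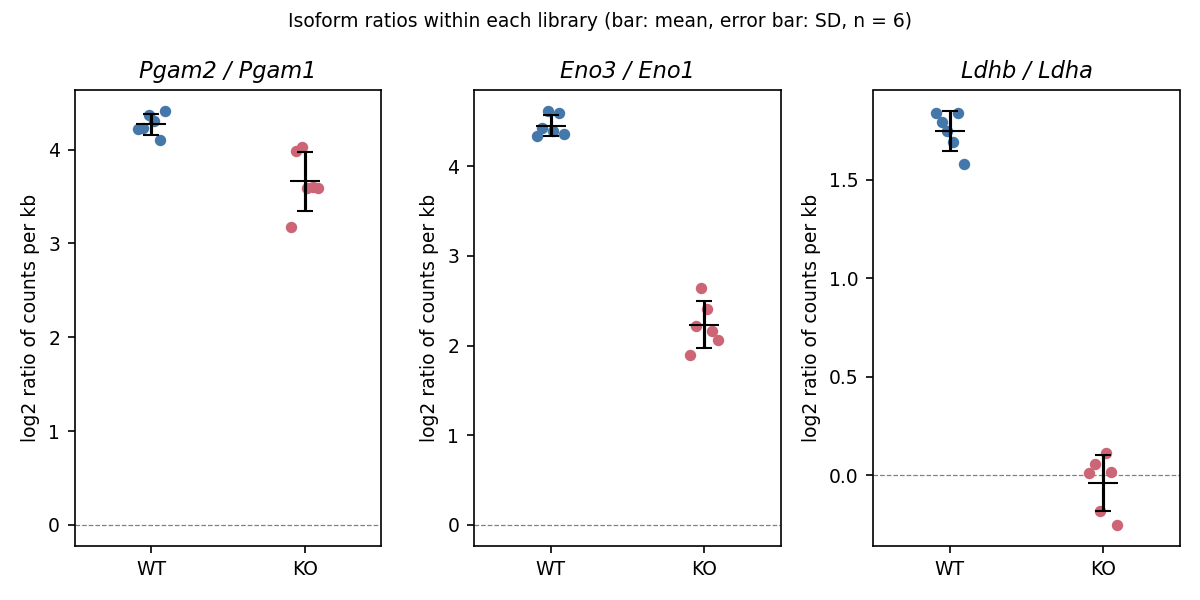
The log2 ratio of the muscle or heart isoform to the other isoform per kb in each library, with mean and SD (n = 6). The dashed line marks equal levels by the gene lengths in the table. The KO libraries lie below the WT libraries in all 3 panels, and those of Ldhb to Ldha lie between -0.25 and 0.11.

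The summed level of the isoforms differed from step to step. The summed phosphoglycerate mutase level was 433 to 544 CPM per kb in WT (median 496) and 556 to 611 in the KO hearts (median 578), a log2 difference of 0.25 (SE 0.06) without overlap. Summed enolase was 733 to 884 in WT (median 816) and 515 to 718 in the KO hearts (median 583), a log2 difference of -0.47 (SE 0.08), also without overlap. Both had an exact permutation p = 0.00216 (adjusted 0.0026). With the deposited FPKM or with library size only, summed mutase had an exact permutation p = 0.00433, so its groups overlapped there. The uncertain levels of Pgam1 and Eno1 carry into these sums. With the deposited FPKM, summed enolase had a log2 difference of -0.36. For lactate dehydrogenase the sum was 1331 to 1423 in WT (median 1372) and 1183 to 1500.2 in the KO hearts (median 1291), which overlapped. Its log2 difference of -0.06 (SE 0.05) did not pass the test (exact permutation p = 0.258). The sum turned to a log2 difference of 0.08 with the deposited FPKM (exact permutation p = 0.128), and it was -0.10 (exact permutation p = 0.0433) without KO replicate 6, the KO library highest in Ldha. No direction is therefore given for this sum.

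The promoters of the isoform pairs are shown so that the isoforms with unlike changes can be set beside each other. The sequences are the 250 bases before the most upstream annotated start of each gene, 5′ to 3′ on the gene's strand, from RefSeq on GRCm38.p6, which is not the assembly of the count table. Capitals mark ACGTG and GCGTG, the core of the HIF binding site, searched on both strands, and in Pgam2 a match to the MEF2 site of muscle genes.
Ldha (chr7:46845554-46845803, plus strand): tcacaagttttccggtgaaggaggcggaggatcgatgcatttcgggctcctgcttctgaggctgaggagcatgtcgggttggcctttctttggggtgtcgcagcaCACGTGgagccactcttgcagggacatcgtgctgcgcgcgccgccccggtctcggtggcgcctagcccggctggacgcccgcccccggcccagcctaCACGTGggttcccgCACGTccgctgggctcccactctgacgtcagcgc
Ldhb (chr6:142507958-142508207, minus strand): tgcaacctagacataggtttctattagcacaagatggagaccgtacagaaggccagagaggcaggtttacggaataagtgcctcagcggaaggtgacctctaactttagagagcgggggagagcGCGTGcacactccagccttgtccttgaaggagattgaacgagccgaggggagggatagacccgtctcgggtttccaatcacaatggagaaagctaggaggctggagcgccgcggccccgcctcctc
Eno1 (chr4:150236458-150236707, plus strand): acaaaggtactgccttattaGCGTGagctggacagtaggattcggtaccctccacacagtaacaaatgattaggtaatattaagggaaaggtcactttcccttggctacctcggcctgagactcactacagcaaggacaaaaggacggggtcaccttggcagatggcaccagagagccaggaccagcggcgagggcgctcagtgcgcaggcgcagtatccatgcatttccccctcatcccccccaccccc
Eno3 (chr11:70656926-70657175, plus strand): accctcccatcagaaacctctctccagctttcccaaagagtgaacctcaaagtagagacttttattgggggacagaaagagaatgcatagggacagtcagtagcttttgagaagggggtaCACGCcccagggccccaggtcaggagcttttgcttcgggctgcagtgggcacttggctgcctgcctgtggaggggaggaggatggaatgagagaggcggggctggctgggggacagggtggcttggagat
Pgam1 (chr19:41911621-41911870, plus strand): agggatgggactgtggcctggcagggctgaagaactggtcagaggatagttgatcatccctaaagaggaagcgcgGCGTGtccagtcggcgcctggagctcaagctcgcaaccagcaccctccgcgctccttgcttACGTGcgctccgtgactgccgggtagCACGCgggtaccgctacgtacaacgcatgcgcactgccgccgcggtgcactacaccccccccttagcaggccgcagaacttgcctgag
Pgam2 (chr11:5803797-5804046, minus strand): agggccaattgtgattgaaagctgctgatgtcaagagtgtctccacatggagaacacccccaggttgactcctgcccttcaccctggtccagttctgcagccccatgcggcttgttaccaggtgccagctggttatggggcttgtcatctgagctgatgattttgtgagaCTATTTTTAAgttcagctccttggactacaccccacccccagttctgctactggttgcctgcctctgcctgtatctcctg

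The Ldha window held 5 matches to ACGTG, at 145, 144, 48, 47 and 34 bases before the start. Those at 145 and 144 and those at 48 and 47 are the strands of a single CACGTG, which also matches the E-box CANNTG. Ldhb and Eno3 each held 1 match to GCGTG, at 126 and 130 bases, and Eno1 held 1 in the window shown, at 230. Windows at later starts of Eno1, which overlap each other, held GCGTG at 86 and 62 and at 113 and 89 bases. A later window of Ldha held GCGTG at 59 bases. Ldhb and Eno3 have only the window shown. Pgam1 held 1 ACGTG at 114 and GCGTG at 175 and 88 bases. Pgam2 held 0 of these cores, but 5 E-boxes and the MEF2 match at 80 bases, a site present in 1.69% of 32544 mouse promoters. E-boxes are common, with at least 1 in 66.19% of those promoters and in 8 of the 10 genes. Over all 10 genes there were 16 windows, and 12 windows of 8 genes held ACGTG or GCGTG. Tpi1 and Pgam2 held neither. Of all promoters, each taken singly, 38.8% held such a core. The units are unlike, because windows of Aldoa and of Eno1 overlap and share sites, and a gene can have several windows. These matches are a description of letters, and a link between them and the changes was not tested.

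The neighbouring steps of the pathway were read from lists of named genes. Of 8 tested genes of upper glycolysis 6 were higher and 1 lower, with a median log2 fold change of 1.00. Over all rows tested the shares were 25.6% and 25.5%. The 3 with the smallest p were Pfkp (mean of 75.4 CPM in WT and 309 in KO, log2 fold change 2.04, SE 0.09), Pfkl (86.1 and 185 CPM, 1.10, SE 0.07) and Hk1 (119 and 303 CPM, 1.35, SE 0.10), encoding platelet and liver phosphofructokinase and hexokinase 1. The gene that was lower was Pfkm, the muscle phosphofructokinase, at 887 ± 43.7 CPM in WT and 663 ± 66.8 in KO (log2 fold change -0.42, SE 0.07, adjusted p = 5.09e-05), named here after its values were seen. Gapdh, which sits between Tpi1 and Pgk1 in the path, had its reads on 50 rows and was not counted.

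Of 10 other genes listed with the lower steps, isoforms and related enzymes, 4 were tested. Of these 2 were higher and 1 lower, against 25.6% and 25.5% of all rows tested. Ldhd, the mitochondrial D-lactate dehydrogenase, fell by 1.17 on the log2 scale (SE 0.07, adjusted p = 1.19e-09), from 58.2 ± 2.81 to 25.8 ± 2.97 CPM. Eno2 (neuronal enolase; 1.23 ± 0.49 and 2.06 ± 0.49) and Bpgm (means of 31.1 and 37.5), which makes bisphosphoglycerate, were higher, at adjusted p = 0.0211 and 0.0272. The median log2 fold change of the tested 4 was 0.09. The other 6 were below the filter on low counts, Pgk2, Pklr and Ldhc being at 0 in every WT library.

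Of 17 genes of lactate transport and pyruvate entry into mitochondria, all tested, 5 were higher and 9 lower, with a median log2 fold change of -0.18. Over all rows tested, 25.6% were called higher and 25.5% lower, so the count of higher genes was near the common share. The 3 with the smallest p were genes of pyruvate dehydrogenase and its kinases, which switch it off. Pdk3 rose from 2.70 ± 0.56 to 9.47 ± 1.54 CPM (log2 fold change 1.81, adjusted p = 4.05e-08), Pdk2 fell by 0.78 on the log2 scale from 410.0 ± 15.4 to 239 ± 27.3 CPM (adjusted p = 5.91e-08), and Pdhb rose from 567 ± 22.7 to 836 ± 47.2 CPM (0.56, adjusted p = 1.55e-07). After their values were seen, Pdha1 and Pdk4 are named beside them. Pdha1, which encodes the partner subunit of Pdhb, fell by 0.37 on the log2 scale from 1593 ± 11.2 to 1236 ± 101 CPM (adjusted p = 4.59e-05). Pdk4, the kinase gene with the most counts in both genotypes, fell by 1.58 on the log2 scale from 5442 ± 632 to 1821 ± 847 CPM (adjusted p = 0.000362). The lactate carriers, named after their values were seen, were unlike each other. Slc16a3 (MCT4), the exporter of glycolytic cells, was at 1.69 ± 0.40 CPM in WT and 6.64 ± 1.96 in KO (adjusted p = 6.60e-07), and Slc16a7 (MCT2) at 5.41 ± 1.33 and 1.98 ± 0.61 (adjusted p = 3.23e-05). Slc16a1 (MCT1), the main carrier of the heart, had a log2 fold change of 0.13 that did not pass the test (adjusted p = 0.0856).

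**Figure D4:**
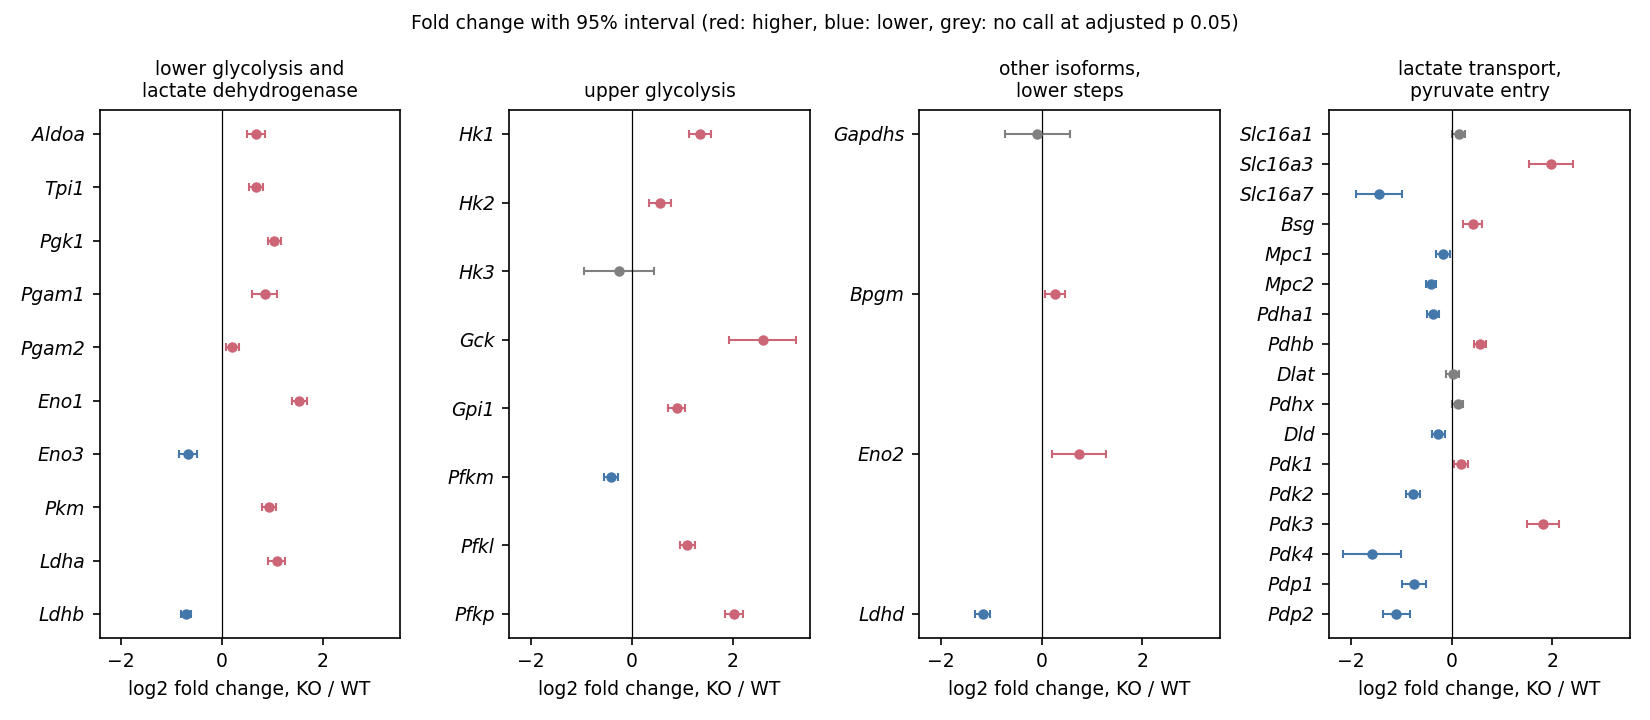
Log2 fold change of KO over WT with its 95% interval for the 10 genes and the 3 lists of neighbouring pathway genes that were tested; red is higher, blue lower and grey not called at an adjusted p of 0.05. In the first panel only Eno3 and Ldhb lie left of 0, and in the panel of upper glycolysis Pfkm is the only gene called lower.

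The KO libraries differed from each other. KO replicate 6 was highest in 7 of the 10 genes and KO replicate 4 lowest in 7. All rows of a library share its scaling, and the same count over all rows was not made. Whether this order is particular to these genes is therefore not known. After centring within each genotype, the genes most like Ldha over the 12 libraries among 9669 rows were Crip2 (Pearson r = 0.96, Spearman rho = 0.95), Ppp2r1a (0.96 and 0.91) and Ubr2 (0.96 and 0.96). The like genes of Eno3 were Cs (0.95 and 0.93), encoding citrate synthase, Uqcrc1 (0.95 and 0.91), a core subunit of complex III, and Ghr (0.92 and 0.81). Those of Ldhb were Mrps35 (0.93 and 0.93), Nrde2 (0.92 and 0.87) and Bckdha (0.91 and 0.82). Without the 2 libraries farthest from the median, r was 0.89 for each of the genes like Ldha, 0.82 to 0.90 for Ldhb and 0.74 to 0.78 for Eno3. These genes were picked as the highest among many, in libraries that share their scaling and depth, and the correlations are a description.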

How the data were processed

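Fresh ventricular wall was taken into Trizol, mRNA was purified on poly-T beads and libraries were made with a kit that does not mark strand. The submitters' processing notes name HISAT2 2.0.5 and mm10, whereas the gene identifiers and coordinates are those of the C57BL/6NJ assembly. The authors deposited raw read counts per gene from HTSeq and FPKM per library, and their own fold changes and p-values, which were not used. Whether HTSeq used strand is not given in the sources used here.

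Tests on the counts used edgeR 4.0.16 in R 4.3.3 (filterByExpr, TMM, robust quasi-likelihood test, Benjamini-Hochberg over 17155 rows; call at 0.05). Isoform ratios and sums used the gene length of the table and a two-sided exact permutation test. The analysis was tested on simulated data. Sequence sharing was counted as 75-base stretches of GENCODE transcripts found in another gene. Pairs of libraries of a genotype differed by a chi-square per degree of freedom of 6.99 to 48.6, so none was counted as a repeat. All 10 members were named, and from each list the 3 genes with the smallest p; likeness used rows of at least 5 CPM. The members and lists were chosen with earlier results of these data known. A gene of 1 list is not reported here, and the list is counted without it. The alternatives were 3 other normalizations, DESeq2 1.42.0, limma-voom (limma 3.58.1), other filters, rows of a name summed, deposited FPKM, 10 counts added, the replicate number as a block, and each library left out. Leaving out KO replicate 3 and WT replicate 6 together was added after the data had been seen.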

Additional observations from a re-analysis of the deposited data

How the results depend on the processing

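The calls of the 10 genes, 8 higher and 2 lower, were unchanged under every normalization, test and filter tried, with the replicate block and with each library left out. The log2 fold changes ranged from 0.17 to 0.23 for Pgam2, the smallest (largest adjusted p = 0.0263), from 0.998 (without KO replicate 3) to 1.07 for Pgk1, which crosses the stricter limit of 1, and from 1.02 to 1.13 for Ldha. Eno3 stayed between -0.76 and -0.62, the lower bound without KO replicate 3.

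The summed lactate dehydrogenase level had a log2 difference of 0.075 with the deposited FPKM, which by construction weigh the subunits by other lengths, and of -0.10 without KO replicate 6. With each library left out it ranged from -0.10 to -0.034. Summed enolase ranged from -0.52 to -0.43 with each library left out and was -0.36 with the deposited FPKM, and summed phosphoglycerate mutase ranged from 0.22 to 0.28. With each library left out the ratios ranged from -2.30 to -2.15 (Eno3 to Eno1), -1.82 to -1.75 (Ldhb to Ldha) and -0.68 to -0.51 (Pgam2 to Pgam1).

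Same-numbered WT and KO libraries deviated with correlations of -0.16 to 0.02. No shared deviation by number was seen, but a small effect of pairing could go unseen. With the replicate block the 8 and 2 calls were kept as counts, and the ratios and the sums of mutase and enolase had an exact permutation p = 0.03125, the smallest it can give. Leaving out KO replicate 3 and WT replicate 6 together, an alternative chosen after seeing the data, changed no call. No library stood far from its group by Dixon's test in 32 groups of 6. Reads shared with copies limit the level of Pgk1, Eno1 and Pgam1 most, and less so that of Pkm and Ldhb.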
